A study of Mus musculus with 19 samples.

Results

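NRF2 (*Nfe2l2*) target genes and the enzymes that clear superoxide and peroxides were measured in the cornea and conjunctiva of mice under ad libitum feeding (AL) or calorie restriction (CR). The 10 genes were taken by name: *Nqo1*, *Hmox1*, *Gclc*, *Gclm*, *Txnrd1*, *Srxn1*, *Sod1*, *Sod2*, *Cat* and *Gpx1*, out of 24557 features in the tables. All 10 passed the filter on low values in each tissue (a mean of at least 10 normalized counts), as did 12278 features of the cornea table and 13929 of the conjunctiva table. The mice were C57BL/6 by the labels and female by the study's methods, and the titles carry the marks 6M and 50W, which the sources used here do not explain. By the study's methods restriction was begun in adult mice and ran for months, so 6M is not taken here as the age at collection. AL mice ate freely. The CR ration was lowered stepwise, held for months and given once a day shortly before the dark phase, and in 1 of the study's cohorts the CR chow carried added vitamins and micronutrients. Which cohort gave these libraries and the hour of collection are not given in the sources used here, so the amount, composition and timing of food cannot be told apart. The groups were 5 AL and 5 CR cornea libraries (epithelium scraped from the surface) and 4 AL and 5 CR conjunctiva libraries (whole excised tissue), named below by diet and title number.

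NRF2 is a transcription factor that is held at a low level by KEAP1, an adaptor that hands it to a ubiquitin ligase for degradation. When oxidants or electrophiles modify KEAP1, NRF2 is spared, enters the nucleus with a small MAF partner and binds antioxidant response elements, from which BACH1 can displace it. Its targets make glutathione, recycle thioredoxin and peroxiredoxin and reduce quinones, while superoxide dismutases, catalase and glutathione peroxidase clear superoxide and hydrogen peroxide. The ocular surface epithelia meet light and air directly and are known for high levels of such enzymes. NRF2 is controlled to a large part through the stability of its protein, which these RNA tables do not show.

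None of the 10 enzyme transcripts passed the test between diets in either tissue. The transcript of NRF2 itself passed in the cornea, where it was 1.51-fold higher in CR. Its limma adjusted p was under 0.05 in 4 of 10 fits with 1 library left out. Whether its change differed from those of the 10 was not tested. With limma on log2(normalized count + 1), a gene was called at a Benjamini-Hochberg adjusted p under 0.05 and a fold over 1.5. In the cornea 0 of the 10 were called, against 1.22% of all genes tested. There, 1 of the 10 had an unadjusted p under 0.05 (18.1% of all genes tested). In the conjunctiva 0 were called, against 0.359% of all genes tested, and 2 had an unadjusted p under 0.05 (9.40% of all genes). The diets were fully separated for 1 of the 10 in the cornea (3.97% of all genes, 1.89% with CR below AL) and for 0 in the conjunctiva (3.87% and 1.95%). The voom test on reads recovered from the tables also called 0 of the 10 in each tissue. The median log2 change of the 10 was 0.13 in the cornea, beside −0.03 over all genes tested, and 0.09 in the conjunctiva, beside −0.02. In each tissue 7 of the 10 values were above 0 and 3 below.

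Libraries held 10354125 to 14681223 counted reads (cornea) and 10726717 to 14433441 (conjunctiva), with no difference between diets that an exact two-sided permutation test found (p = 0.278 and p = 0.778). The share of features without a read was 38.7% to 45.2% in AL and 39.9% to 47.6% in CR cornea (exact permutation p = 0.0714). AL 4 (45.2%) had the highest share among the AL cornea libraries and CR 1 (39.9%) the lowest among the CR ones, so results are also given without both. The corneal keratin *Krt12* lay between 179846 and 340965 normalized counts in cornea libraries, against 436 to 5139 in conjunctiva libraries. The goblet cell mucin *Muc5ac* was at 2328 to 6593 in the conjunctiva and at 43.3 or less in the cornea. Each library is labelled as a sample of its own, and the spread behind the p-values is that between these libraries. Fewer cells of a type and less RNA per cell cannot be told apart in such bulk tissue.

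The promoters are shown first because some of the 10 genes were taken as targets of NRF2, which binds antioxidant response elements. RefSeq promoter windows (build GRCm38.p6, 250 bases before to 50 after a start site) were matched by symbol for 8 of the 10 genes, all but *Hmox1* and *Gclc*. The element core searched was TGACNNNGC on either strand, which holds an AP-1 site (TGACTCA) where its free bases are TCA. It was present in 12.4% of 32851 windows and in 14.0% of the 27025 genes with a window. Of the 8 genes, 4 had a match (*Gclm*, *Srxn1*, *Sod1* and 1 of 3 start sites of *Txnrd1*), and *Nqo1*, *Sod2*, *Cat* and *Gpx1* had none in this window. *Nfe2l2* itself had 1 match, while *Keap1* and *Bach1* had none. The matches in the 4 enzyme genes lie on the opposite strand, so the core reads there as its reverse complement. Each stretch is 5′ to 3′ on the strand of its gene, with the match in capitals. A match describes the letters only.
*Gclm*, chr3:122245383-122245471, plus strand, first base of the match 134 bases before the start: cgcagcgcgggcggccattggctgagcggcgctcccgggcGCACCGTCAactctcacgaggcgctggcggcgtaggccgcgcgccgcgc
*Txnrd1*, chr10:82859074-82859162, plus strand, 92 bases before the start: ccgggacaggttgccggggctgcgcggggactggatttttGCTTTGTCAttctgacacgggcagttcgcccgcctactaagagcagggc
*Sod1*, chr16:90220666-90220754, plus strand, 56 bases before the start: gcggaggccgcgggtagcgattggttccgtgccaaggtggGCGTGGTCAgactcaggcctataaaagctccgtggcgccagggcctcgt
*Srxn1*, chr2:152105542-152105570, plus strand, 29 bases after the start: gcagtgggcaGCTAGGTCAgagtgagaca
*Nfe2l2*, chr2:75704855-75704913, minus strand, 240 bases before the start: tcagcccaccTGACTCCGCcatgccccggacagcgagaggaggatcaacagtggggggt

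*Nfe2l2* (NRF2; chr2:75675513-75704663 on GRCm38.p6, minus strand) was the regulator that passed the test. In the AL cornea it was at 1559, 1481, 1444, 2077 and 1592 normalized counts in libraries 1 to 5. In the CR cornea it was at 2555, 2738, 2555, 2026 and 2402 in libraries 1, 2, 3, 4 and 7. The groups overlapped only through AL 4, which lay above CR 4, the lowest CR library. The log2 change was 0.60 ± 0.12 (SE, n = 5 and 5, limma adjusted p = 0.0154), with a 95% confidence interval of 0.35 to 0.84. The fold of 1.51 was just past the threshold of 1.5. The adjusted p was 0.000811 without AL 4 and CR 1, and 0.113 with the share of features without a read as a covariate (log2 change 0.44). Leaving out AL 4 and CR 1 removes the libraries in which that share was most like the other diet, and so widens its gap between diets by construction. With 1 library left out at a time it ranged from 0.00163 (without AL 4) to 0.0636 (without CR 3), and passed 0.05 in 4 of 10 such fits.

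In the conjunctiva *Nfe2l2* was at 2985, 2668, 2779.9 and 3379.6 normalized counts in AL 1, 3, 4 and 5. It was at 4176, 3278, 2664, 4061 and 3698 in CR 1 to 5, so that CR 3 was the lowest library of the tissue. Its log2 change there was 0.26 ± 0.15 (SE, n = 4 and 5, limma adjusted p = 0.624). The change in conjunctiva minus that in cornea was −0.33 ± 0.19 (SE, adjusted p = 0.723), so the tissues were not shown to differ.

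*Keap1* and *Bach1*, the genes of the NRF2 inhibitor and of its competitor on DNA, did not pass the test in either tissue. *Keap1* was at 1345 to 1623 normalized counts in the AL and 1213 to 1885 in the CR cornea, a log2 change of 0.01 ± 0.12 (SE, 95% confidence interval −0.25 to 0.26). In the conjunctiva it was at 1552 to 1742 in AL and 1693 to 2182 in CR, a log2 change of 0.19 ± 0.13. *Bach1* had log2 changes of 0.40 ± 0.20 for the cornea (unadjusted p = 0.0572, limma adjusted p = 0.294) and 0.30 ± 0.22 for the conjunctiva (limma adjusted p = 0.711). Its AL and CR libraries overlapped in each tissue.

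**Figure D1:**
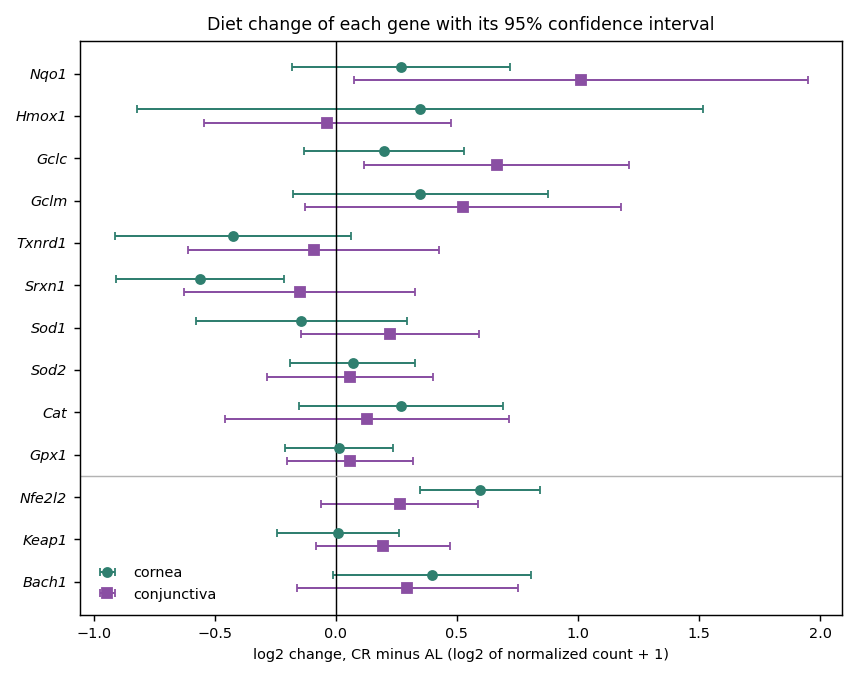
Log2 change between diets (CR minus AL, x axis, in log2 of normalized count + 1) with its 95% confidence interval for the 10 enzyme genes and, below the grey line, 3 regulators; circles are cornea and squares conjunctiva. The intervals of *Srxn1* and *Nfe2l2* in the cornea and of *Nqo1* and *Gclc* in the conjunctiva lie off 0 before adjustment over all genes, and only *Nfe2l2* passed after it.

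*Gclc* and *Gclm* encode the catalytic and the modifier subunit of glutamate-cysteine ligase, the rate-limiting step of glutathione synthesis. In the AL cornea *Gclc* was at 685, 684, 887, 1196 and 728 normalized counts, and in the CR cornea at 835, 919, 1056, 771 and 1149. AL 4 was the highest library of the tissue and CR 7 the next. The log2 difference was 0.20 ± 0.16 (SE, limma adjusted p = 0.529, 95% confidence interval −0.13 to 0.53). *Gclm* showed the same order at the top, with 224, 351, 303, 570.4 and 236 in AL and 299, 469, 459.9, 301 and 554 in CR. Its log2 change was 0.35 ± 0.25 (limma adjusted p = 0.477). Without AL 4 and CR 1 it was 0.67 (adjusted p = 0.0264), the call of *Gclm* in the cornea that an alternative gave. With the share of features without a read as a covariate the sign turned, to −0.12 for *Gclc* and −0.18 for *Gclm*.

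In the conjunctiva *Gclc* was at 666, 1244, 956 and 823 normalized counts in AL and at 1174, 1379, 1283, 1076 and 2626 in CR. Only AL 3 reached into the CR range, and CR 5 stood far above the other libraries. The change on the log2 scale was 0.66 ± 0.25 (SE, n = 4 and 5, unadjusted p = 0.0211, limma adjusted p = 0.408), a fold of 1.58 with a 95% confidence interval of 1.08 to 2.31. *Gclm* was at 961, 1161, 872 and 1164 in AL and at 1059, 1367, 938, 1773 and 2993 in CR, and CR 5 was again the highest. Its log2 change was 0.52 ± 0.30 (limma adjusted p = 0.624). Without CR 5 the log2 change was 0.44 for *Gclc* and 0.27 for *Gclm*, neither past the test. Annotated genes overlap *Gclm* on either strand, and since the use of strand in counting is not known its reads are less certain than those of *Gclc*.

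*Nqo1* encodes a quinone reductase that is widely used as a readout of NRF2. In the cornea it was at 344, 425, 526, 585 and 269.8 normalized counts in AL and at 380.0, 574, 686, 393 and 527 in CR. AL 1 and AL 5 lay below every CR library and CR 3 above every AL library. The fitted log2 change was 0.27 ± 0.21 (SE, limma adjusted p = 0.526). In the conjunctiva it was at 354, 840.5, 484 and 297 in AL and at 499.7, 656, 999, 1164 and 1712 in CR. There 3 of 5 CR libraries lay above every AL library, and AL 3 lay above 2 CR libraries. The log2 change of 1.01 ± 0.41 was the largest of the 10 genes in either tissue (fold 2.02, 95% confidence interval 1.05 to 3.86, unadjusted p = 0.0372, limma adjusted p = 0.485). Leaving out 1 library at a time gave 0.79 (without CR 5) to 1.31 (without AL 3), with no adjusted p under 0.313.

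*Hmox1*, the inducible heme oxygenase, was low in the cornea, at 6.55 to 23.7 normalized counts in AL and 12.3 to 26.3 in CR, or 6 to 26 reads per library. At this depth its interval was wide (log2 change 0.35 ± 0.56, 95% confidence interval −0.82 to 1.51). In the conjunctiva it was at 106, 153, 103 and 97.2 in AL and at 114, 99, 111, 139 and 93.1 in CR, and the CR libraries lay within the AL range but for CR 5. The log2 change there was −0.04 ± 0.24 (limma adjusted p = 0.977), with an interval of −0.55 to 0.48. As a share of counted reads (RPM, reads scaled to the same library total) *Hmox1* was at 0.579 to 2.31 in cornea libraries and 6.87 to 12.7 in conjunctiva libraries, with no overlap. The tissues came as separate tables and were not tested against each other, and the share of all genes without such overlap was not computed.

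**Figure D2:**
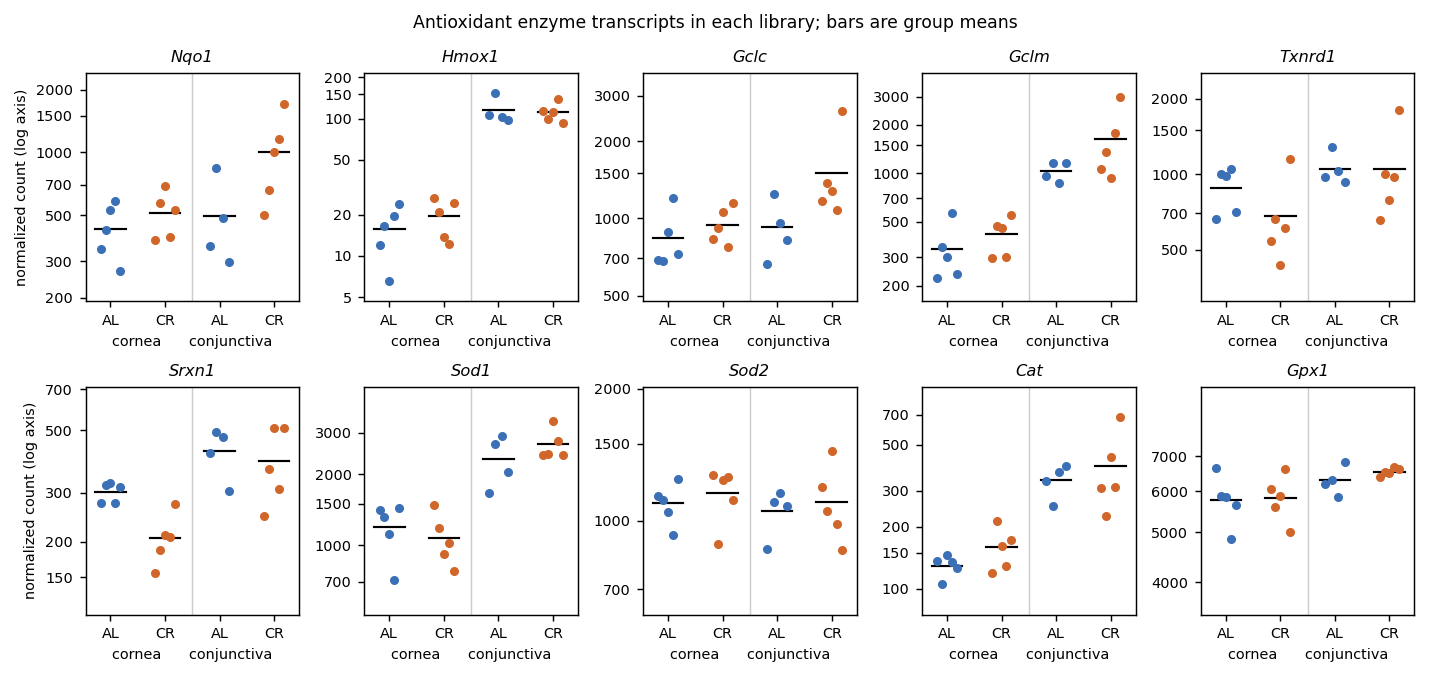
Normalized counts (y axis, log scale, a range of its own for each gene) of the 10 genes in every library, by tissue and diet (AL blue, CR orange), with group means as bars. *Srxn1* in the cornea is the panel in which the diets do not overlap (CR 154 to 273, AL 275 to 324). The highest library in the conjunctiva panels of *Nqo1*, *Gclc*, *Gclm*, *Txnrd1* and *Cat* is CR 5.

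*Txnrd1* and *Srxn1* belong to the thioredoxin arm: thioredoxin reductase 1 keeps cytosolic thioredoxin reduced, and sulfiredoxin 1 repairs over-oxidized peroxiredoxins. In the AL cornea *Srxn1* was at 276, 318, 324, 275 and 314 normalized counts. In the CR cornea it was at 154, 187, 212, 208 and 273, so that all 5 CR libraries lay below all 5 AL libraries, CR 7 by less than 3. In the fit the log2 change was −0.56 ± 0.16 (SE, n = 5 and 5, unadjusted p = 0.00302, limma adjusted p = 0.0923), a fold of 0.677 with a 95% confidence interval of 0.533 to 0.861. By p, *Srxn1* ranked 402 among the 12278 genes. It passed the test with array weights (log2 change −0.61; adjusted p = 0.0176) and without CR 7 (−0.67; adjusted p = 0.0371), and in none of the other fits, where the adjusted p ran up to 0.213.

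*Txnrd1* in the cornea was at 661, 998, 987, 1049.6 and 705 normalized counts in AL and at 542, 662, 436, 611 and 1153 in CR. CR 7 was the highest library of the tissue, while 3 of the other CR libraries lay below every AL library. The log2 change was −0.43 ± 0.23 (SE, unadjusted p = 0.0824, limma adjusted p = 0.342), and −0.64 without CR 7 (adjusted p = 0.0552). *Txnrd1* overlaps *Eid3* on its own strand and antisense transcripts, so its reads may include others.

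In the conjunctiva *Srxn1* was at 416, 492, 472 and 303 normalized counts in AL and at 246, 365, 509, 308 and 511 in CR. Its log2 change was −0.15 ± 0.23 (SE, limma adjusted p = 0.883, 95% confidence interval −0.63 to 0.33). *Txnrd1* was at 971, 1282, 1027 and 934 in AL and at 655, 1000.4, 789.8, 971 and 1807 in CR, with CR libraries at both ends of the range. Its log2 change was −0.09 ± 0.24 (limma adjusted p = 0.935), and −0.31 without CR 5. The differences between tissues were 0.41 ± 0.28 for *Srxn1* (adjusted p = 0.765) and 0.33 ± 0.33 for *Txnrd1* (adjusted p = 0.843).

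*Sod1*, the copper-zinc superoxide dismutase of the cytosol, was at 1404, 1319, 1117, 711 and 1431 normalized counts in the AL cornea. In the CR cornea it was at 1483, 1187, 913, 1022 and 780.1. AL 4 and CR 7, the highest libraries for *Gclc* and *Gclm*, were the lowest here. The log2 difference was −0.14 ± 0.20 (SE, limma adjusted p = 0.746). It was −0.44 without AL 4 and CR 1 (adjusted p = 0.0318, with a fold under the threshold) and 0.28 with the share of features without a read as a covariate. In the conjunctiva AL libraries were at 1664, 2692, 2917 and 2035 and CR libraries at 2400.1, 2445, 3361, 2753 and 2403, a log2 change of 0.22 ± 0.17 (limma adjusted p = 0.737). *Scaf4* overlaps *Sod1* on the opposite strand.

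*Sod2*, the manganese superoxide dismutase of mitochondria, had narrow intervals around 0. It was at 929 to 1245 normalized counts in the AL and 885 to 1275 in the CR cornea (log2 change 0.07 ± 0.12, 95% confidence interval −0.19 to 0.33). In the conjunctiva it was at 862 to 1161 in AL and 858 to 1444 in CR (log2 change 0.06 ± 0.16, interval −0.28 to 0.40). *Gpx1*, the selenium-dependent glutathione peroxidase of the cytosol, was at 4853 to 6645 in the AL and 4997 to 6624 in the CR cornea, and 5852 to 6820.0 and 6394 to 6687 in the conjunctiva. Its log2 changes were 0.01 ± 0.11 (interval −0.21 to 0.24) and 0.06 ± 0.12 (interval −0.20 to 0.32). For *Sod2* and *Gpx1* these unadjusted intervals leave out a 1.5-fold change in either direction.

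*Cat* encodes catalase, which breaks down hydrogen peroxide in peroxisomes. In the cornea it was at 136, 105, 146, 135 and 126 normalized counts in AL and at 119, 213, 161, 129 and 173 in CR. The 3 highest libraries were CR, and the other 2 CR libraries lay within the AL range. The change on the log2 scale was 0.27 ± 0.20 (SE, limma adjusted p = 0.496). In the conjunctiva it was at 334, 252, 371 and 397 in AL and at 308, 225, 436, 312 and 687 in CR. The log2 change of 0.13 ± 0.27 (limma adjusted p = 0.918) became −0.10 without CR 5.

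None of the 10 genes was shown to change with diet differently in the tissues. The tissues share title numbers for 4 AL and 4 CR libraries, and several tissues were taken from each mouse by the study's methods. Whether equal numbers mark the same mouse is not given in the sources used here, and the test took the fits of the tissues as independent. This test of the difference between the log2 changes passed for 0 of the 10 genes, against 0.0168% of 11929 genes, and 0 of the 10 had an unadjusted p under 0.05 (7.48% of all genes). The largest differences, conjunctiva minus cornea, were 0.74 ± 0.46 for *Nqo1* (adjusted p = 0.751) and 0.47 ± 0.30 for *Gclc* (adjusted p = 0.750). The voom fit was not run for this difference. As shares of counted reads, *Gclm* was at 19.0 to 49.1 RPM (cornea) and 74.5 to 220.8 RPM (conjunctiva), and *Sod1* at 61.2 to 130.1 and 143 to 291, neither with overlap. The share of all genes without overlap between the tissues was not computed, so this is not taken as particular to these genes. *Sod2* (76.5 to 111.8 and 63.3 to 125), *Gclc*, *Nqo1*, *Txnrd1*, *Srxn1*, *Cat* and *Gpx1* overlapped between the tissues.

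Single libraries carried much of the spread. In the conjunctiva CR 5 was the highest library for 6 of the 10 genes (*Nqo1*, *Gclc*, *Gclm*, *Txnrd1*, *Srxn1* and *Cat*) and the lowest for *Hmox1* and *Sod2*. Its median log2 ratio to the AL mean over the 10 genes was 0.55, and the other CR libraries lay between 0.03 and 0.34. CR 5 also had the highest share of features without a read in the tissue (40.1%), the lowest summed counts of the fibroblast (25902), macrophage (2244) and vessel (457) markers and the highest sum of goblet cell markers (10068). The part of these in the values of the 10 genes was not tested. In the cornea the libraries were closer, and the median ratios ran from −0.18 (AL 1) to 0.38 (CR 7). CR 7 had the highest summed counts of the conjunctival epithelium markers in the tissue (83244, with the next library at 57475) and of the fibroblast markers (2133), and the lowest sum of the corneal epithelium markers (483586). All 5 conjunctival epithelium markers had positive changes in the CR cornea and 0 were called. The largest was that of the keratin *Krt4*, at 2048 to 5103 normalized counts in AL and 4582 to 10724 in CR (log2 change 0.96 ± 0.29, unadjusted p = 0.00780, limma adjusted p = 0.137). The part of these in the cornea values was not tested.

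**Figure D3:**
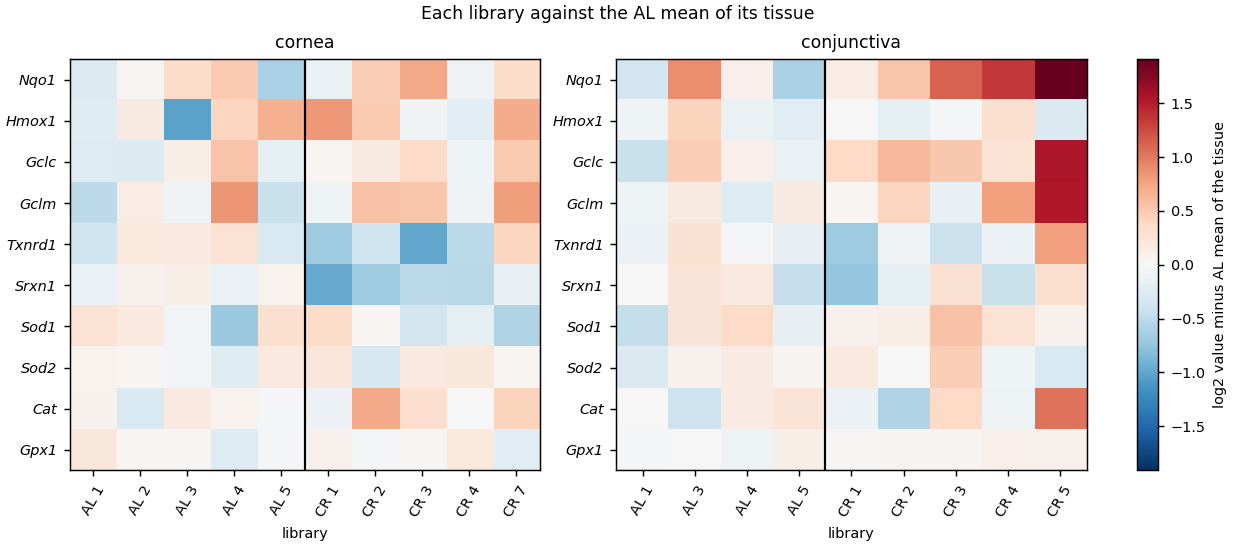
Log2 value of each gene (rows) in each library (columns) minus the mean of the AL libraries of the same tissue, with AL left and CR right of the black line and red above the AL mean. In the conjunctiva CR 5 reaches 1.91 for *Nqo1*, 1.55 for *Gclc* and 1.54 for *Gclm*, and in the cornea the *Srxn1* row is blue in every CR library.

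The transcripts were also compared with each other across libraries, over 45 pairs in each tissue, on log2(normalized count + 1). In the cornea 3 pairs had an adjusted p of Pearson's r under 0.05 (permutation test, Benjamini-Hochberg over 45 pairs). The subunits *Gclc* and *Gclm* went together (r = 0.88, permutation p = 0.00142, adjusted p = 0.0380; Spearman's rho = 0.79, permutation p = 0.00851, adjusted p = 0.0820; n = 10). *Nqo1* and *Gclm* did as well (r = 0.84, permutation p = 0.00321, adjusted p = 0.0481; rho = 0.89, permutation p = 0.00113, adjusted p = 0.0508). *Gclc* and *Sod1* went in opposite directions (r = −0.87, permutation p = 0.00169, adjusted p = 0.0380; rho = −0.76, permutation p = 0.0148, adjusted p = 0.0951). No pair passed by both measures.

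Without the 2 libraries farthest from the median of the first gene, r was 0.74 for *Gclc* and *Gclm* and −0.68 for *Gclc* and *Sod1* (both without AL 4 and CR 7; exact permutation p = 0.0378 and p = 0.0675). Leaving out the libraries farthest in the first gene narrows its range, so this step cannot tell whether a pair rested on them. For *Nqo1* and *Gclm* it was 0.85 (without AL 5 and CR 3; exact permutation p = 0.0119). With each value taken as its deviation from the mean of its diet group, r was 0.86, −0.87 and 0.82 in the same order of pairs, close to the values over all libraries. On these deviations 6 of the 45 pairs passed, among them *Gclc* and *Gclm* each with *Gpx1* (r = −0.84 and −0.85). On the values themselves, 0 of the 45 pairs passed with AL 1, AL 3, AL 4, CR 3 or CR 7 left out singly.

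Some of the transcripts in these pairs, and *Cat*, moved with the share of features without a read in a library. In the cornea this share went with *Gclm* (r = 0.84, permutation p = 0.00471, adjusted over the 10 genes 0.0319; rho = 0.66, permutation p = 0.0435; n = 10) and *Gclc* (r = 0.82, permutation p = 0.00639, adjusted 0.0319; rho = 0.81, permutation p = 0.00703). It also went with *Cat* (r = 0.73, permutation p = 0.0125, adjusted 0.0349; rho = 0.70, permutation p = 0.0305) and against *Sod1* (r = −0.76, permutation p = 0.0140, adjusted 0.0349; rho = −0.61, permutation p = 0.0668). *Nqo1* did not pass (r = 0.64, permutation p = 0.0451, adjusted 0.0902). By rho, no gene passed after adjustment. Leaving out the 2 libraries with the most extreme shares gave r = 0.76 for *Gclm*, 0.80 for *Gclc*, 0.54 for *Cat* and −0.84 for *Sod1*. Its part in the pairs of transcripts was not tested.

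In the conjunctiva 0 of 45 pairs passed by r or by rho after adjustment. The highest r was 0.83, for *Nqo1* and *Gclc* (permutation p = 0.00376, adjusted p = 0.169; rho = 0.77, exact permutation p = 0.0214; n = 9). *Gclc* and *Gclm* had r = 0.76 there (exact permutation p = 0.0303, adjusted p = 0.405; rho = 0.43, exact permutation p = 0.250), and r = 0.11 without AL 1 and CR 5. *Gclm* went with the share of features without a read (r = 0.86, exact permutation p = 0.00107, adjusted 0.0107; rho = 0.93, exact permutation p = 0.000750, adjusted 0.00750), and r was 0.70 once the 2 libraries with the most extreme shares were left out.

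**Figure D4:**
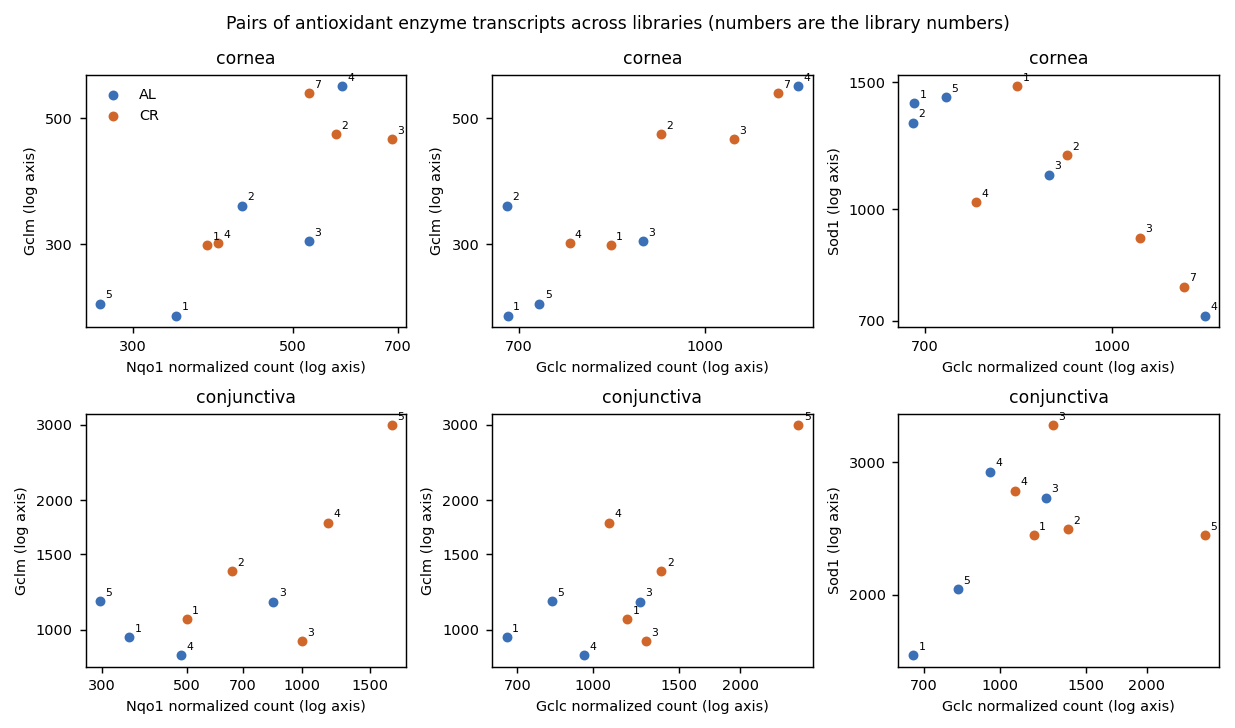
Normalized counts (log axes) of *Gclm* against *Nqo1*, *Gclm* against *Gclc* and *Sod1* against *Gclc* in each library, cornea above and conjunctiva below, AL blue and CR orange, with library numbers beside the points. In the cornea AL 4 sits among the CR libraries at the high *Gclc* end (1196), and in the conjunctiva CR 5 stands alone at 2626.

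Other genes of the pathway were followed through 10 lists of redox genes with 121 members, none of them among the 10 enzymes. In the cornea 105 were tested and 2 rose, *Nfe2l2* and *Prdx4*, beside 0.749% of all genes tested that were called higher. None was called lower, and 9 had positive and 10 negative changes at an unadjusted p under 0.05. Together these were 18.1% of the 105, the same share as over all genes tested (8.52% positive and 9.55% negative). *Prdx4*, the peroxiredoxin of the endoplasmic reticulum, was at 56.1, 52.4, 26.2, 53.1 and 22.7 normalized counts in AL and at 92.0, 97.1, 130.3, 65.4 and 142 in CR. All CR libraries lay above all AL libraries, and the log2 change was 1.35 ± 0.33 (SE, n = 5 and 5, limma adjusted p = 0.0445). The voom test gave 1.38 with an adjusted p of 0.0715, and with 1 library left out at a time the adjusted p passed 0.05 in 3 of 10 fits. In the conjunctiva *Prdx4* had a log2 change of 0.08 ± 0.24 (limma adjusted p = 0.943). The change in conjunctiva minus that in cornea was −1.27 ± 0.40 (adjusted p = 0.390). Its median was 5.22 RPM over cornea and 23.0 RPM over conjunctiva libraries. CR 7, its highest cornea library, also had the highest sum of conjunctival epithelium markers, whose part was not tested. In the cornea the count of called list genes was 0 without any 1 of AL 1, AL 2, AL 3, AL 5, CR 2 or CR 3, and 7 without AL 4.

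The next genes by p in the cornea did not pass in the fit reported. *Akr1b10*, an aldo-keto reductase and NRF2 target, was at 279 to 357 normalized counts in AL and 188 to 243 in CR (log2 change −0.61 ± 0.15, limma adjusted p = 0.0504). *Xdh*, the xanthine dehydrogenase that can make superoxide, was at 216 to 347 in AL and 143 to 189 in CR (log2 change −0.68 ± 0.18, limma adjusted p = 0.0621). For each, every CR library lay below every AL library. *Akr1b10* was called with a pseudocount of 0.5 (adjusted p = 0.0497), with the filter at a mean of 50 (adjusted p = 0.0412), with array weights (adjusted p = 0.0161) and without AL 4 (adjusted p = 0.0280) or CR 4 (adjusted p = 0.0336), and *Xdh* with array weights (adjusted p = 0.0161) and without AL 4 (adjusted p = 0.0250). *Akr1b10* and *Xdh* were also called without AL 4 and CR 1 together (limma adjusted p = 0.0197 and 0.0188). The adjusted p of *Akr1b10* was under 0.05 in 5 of 11 fits with other settings, and ran up to 0.281. With 1 library left out at a time it was so in 2 of 10. For *Xdh* these were 2 of 11, up to 0.210, and 1 of 10. Over all genes, calls were 150 in the fit reported, 705 with array weights, 536 without AL 4 and 1212 without AL 4 and CR 1. The count of called list genes was 3 with that pseudocount and 3 with that filter.

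In the conjunctiva 113 of the listed genes were tested and 0 were called with limma, beside 0.359% of all genes tested, and voom also called 0. At an unadjusted p under 0.05, 10 had positive and 3 negative changes (11.5% of the 113 in all), beside 4.53% of all genes with a positive and 4.87% with a negative change. *Abcc4*, a glutathione conjugate and organic anion exporter, came nearest: 866, 1022, 828 and 762 normalized counts in AL against 1491, 1307, 1113, 1314 and 1481 in CR, without overlap (log2 change 0.62 ± 0.14, limma adjusted p = 0.0767). *Slc40a1*, the iron exporter ferroportin, did not overlap either, at 44.2 to 70.0 in AL and 75.0 to 179.5 in CR (log2 change 1.01 ± 0.31, limma adjusted p = 0.244). The retinaldehyde dehydrogenase *Aldh1a1* (log2 change 0.54 ± 0.17, limma adjusted p = 0.242) and *Bach2*, a relative of *Bach1* (0.66 ± 0.21, limma adjusted p = 0.265), followed. By list, the median log2 change was highest for NADPH supply (0.30, 7 of 8 positive) and lowest for sources of reactive oxygen (−0.31, 7 of 9 negative). Of these, 2 of the 8 and 0 of the 9 had an unadjusted p under 0.05 (9.40% of all genes). In the cornea the medians of the same lists were −0.07 (4 of 8 positive) and −0.18 (7 of 7 negative). The lists were not tested as sets.

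**Figure D5:**
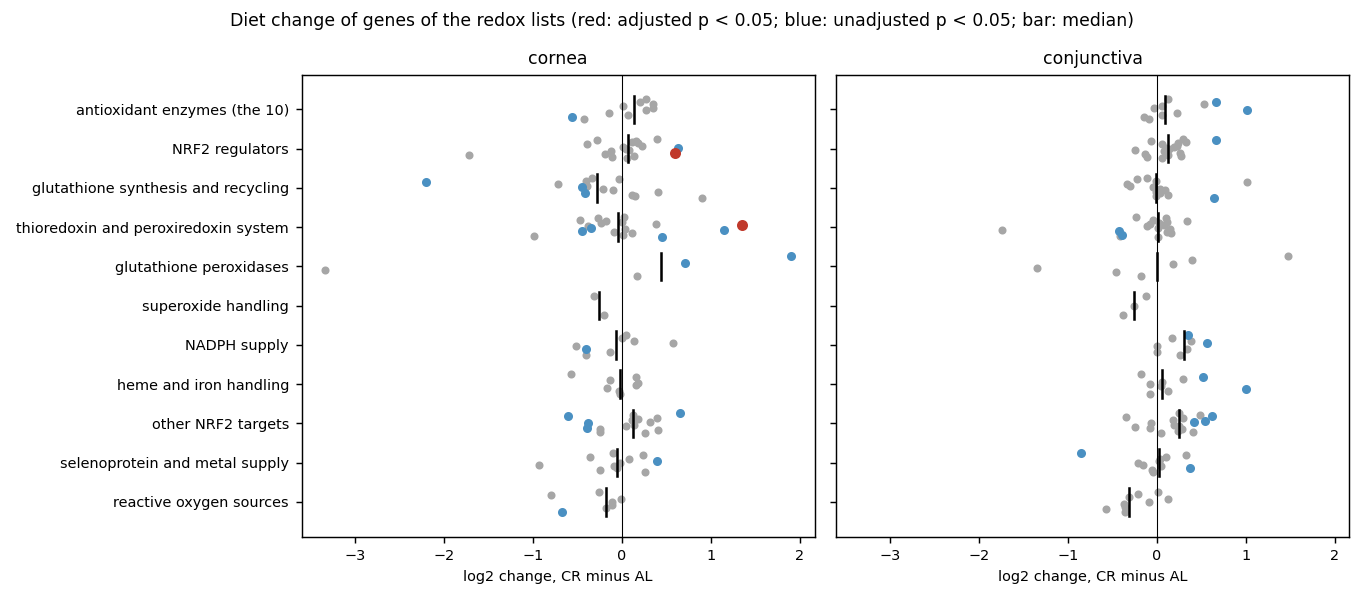
Log2 change between diets (CR minus AL, x axis) of each tested gene of the 10 enzymes and the 10 redox lists in cornea and conjunctiva, with medians as bars, red at an adjusted p under 0.05 and blue at an unadjusted p under 0.05. The cornea holds 2 red points, *Nfe2l2* and *Prdx4*, and the conjunctiva none.

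Some markers of other cell types were called between diets in the same libraries. Of all genes tested, 1.22% were called in the cornea and 0.359% in the conjunctiva. Of the macrophage list, 5 of 5 tested genes in the cornea and 9 of 9 in the conjunctiva had negative log2 changes, with 1 call in cornea and 0 in conjunctiva. In the cornea the mean count of *C1qc* was nonetheless higher in CR (22.6) than in AL (20.7), with a log2 change of −0.34 ± 0.67. The summed counts of the macrophage list were 320.1 to 427 in AL and 207 to 311 in CR cornea, and 3509 to 4631 and 2244 to 3562 in the conjunctiva. Of the fibroblast list, 7 of 7 genes were lower in the CR conjunctiva and 2 were called, with overlapping sums of 39255 to 58958 in AL and 25902 to 51340 in CR. Of the 6 fibroblast genes tested in the cornea, 3 had positive and 3 negative changes, and 0 were called. Of the red blood cell list, the hemoglobin genes *Hba-a1*, *Hba-a2*, *Hbb-bs* and *Hbb-bt* were at 0 in all libraries of both tissues. The other 2 members, *Alas2* and *Slc4a1*, had higher means in the CR conjunctiva (log2 changes 1.55 ± 0.59 and 2.12 ± 0.82), both at an unadjusted p under 0.05 and neither called (limma adjusted p = 0.466 and 0.399). The sums of this list, 107 to 637 in AL and 573 to 1673 in CR conjunctiva, were mostly *Alas2* (103 to 603 and 564 to 1621). Whether reads of the hemoglobin genes were counted at all is not given in the sources used here. Lacrimal gland markers reached a sum of 2912 in AL 1 of the cornea, while the other AL cornea libraries were at 86.7 to 208 and the CR ones at 48.3 to 395. The part of such cells in the values of the 10 genes was not tested.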

How the data were processed

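The authors trimmed single reads with cutadapt, aligned them with STAR, counted them per gene with HTSeq on ROSALIND and scaled them with DESeq2. The study's methods name build mm10, while the submitters' processing notes name GRCm39 and DESeq2. The labels and the methods name different library kits, so strandedness is unsettled. The deposited values are log2 of (scaled count + 1), with each tissue scaled on its own. Undoing the log and the scaling gave whole reads for 100% of the values (tolerance 0.02 reads). Of 24557 features, 5 with a repeated symbol were left out. A count of 0 allows up to 3 reads, 2.27 to 3.37 normalized counts.

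Diets were compared with limma 3.58.1 (statmod 1.5.0, R 4.3.3; trend and robust moderation) on log2(normalized count + 1) within each tissue, where the mean was at least 10. The fold changes are on this scale, which understates those of low genes. Intervals are 95% and not adjusted. The difference between tissues was tested from both fits with Satterthwaite degrees of freedom. Correlations used 100000 permutations in the cornea and all permutations in the conjunctiva, two-sided. The procedure was tested on simulated counts.

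The 10 genes, the redox and marker lists and the tests were chosen with earlier results of these data known. Genes named were the 10 enzymes, *Nfe2l2*, *Keap1*, *Bach1* and, in each tissue, the redox genes past the threshold or, where fewer than 4 passed, those with the smallest p up to 4. The alternatives covered the pseudocount (0.5 and 10), the filter (none or 50), quantile and TMM scaling, voom, array weights, a covariate, a replicate block, left-out libraries and other thresholds. Coordinates and promoters are RefSeq GRCm38.p6, which is not the build of the processing notes, and gene overlaps are GENCODE M21.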

Additional observations from a re-analysis of the deposited data

Results flagged for a closer look

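In 80 groups of 4 or 5 libraries (20 named genes), 5 held a library whose gap to its nearest neighbour was large for the range of the group by Dixon's test, which flags about 1 in 20 groups by chance. *Gclc* in conjunctiva CR 5 was at 2626 normalized counts, with the next CR library at 1379 and a gap of 0.804 of the range. *Hmox1* in conjunctiva AL 3 was at 153, with the next AL library at 106 (0.839 of the range). *Nfe2l2* in cornea AL 4 was at 2077, beside 1592 in the next AL library (0.766 of the range). *Akr1b10* in cornea CR 4 was at 243, with the next at 199 (0.790 of the range). *Slc40a1* in cornea CR 7 was at 30.6, with the next at 8.76 (0.751 of the range), a gene below the filter in that tissue. Of the named genes, 19 were tested in both tissues, and 0 had a diet change that differed between the tissues after adjustment.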

How the results depend on the processing

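Among the 10 enzymes, 0 were called in the conjunctiva and 0 differed between tissues under every alternative run. In the cornea the count was 0 in the fit reported and 1 with array weights, 1 without AL 4 and CR 1 together, 1 at an adjusted p under 0.10, and 0 to 1 with single libraries left out. Redox list genes called in the cornea were 2 in the fit reported, 1 without a filter, 1 with quantile normalization, 1 with voom, 7 with array weights, 0 with the covariate, 6 at an adjusted p under 0.10, 15 without AL 4 and CR 1 together, and 0 to 7 with single libraries left out. *Nfe2l2* was lost with quantile normalization through its fold. In the conjunctiva 0 became 1 (*Abcc4*) with array weights, 1 at an adjusted p under 0.10 and 0 to 1 without single libraries. The 3 correlated pairs in the cornea were 6 on deviations from the diet means and 0 to 3 without single libraries. Over all genes, the cornea gave 150 calls, 99 with voom, 62 with the covariate, 705 with array weights, 430 at an adjusted p under 0.10, 1212 without AL 4 and CR 1 and 53 (without AL 5) to 536 (without AL 4) with single libraries left out. The conjunctiva gave 50, and 149, 103 and 26 (without CR 2) to 127 (without CR 3) with array weights, at 0.10 and without single libraries. The cause of these moves was not tested.

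Libraries of the diets share title numbers but come from different mice, and the correlation between deviations of same-numbered libraries was −0.30 to 0.29 (cornea) and −0.062 to 0.053 (conjunctiva), so the numbers were not taken as pairs. With the replicate number as a block, 0 redox genes were called in the cornea, and all calls fell to 46 there and to 10 in the conjunctiva. In that fit the sign of the log2 change turned, to 0.040 for *Sod1* in the cornea and 0.0033 for *Hmox1* in the conjunctiva. Changes also turned sign elsewhere, and not only those near 0. In the fit reported, those of the cornea were 0.27 for *Nqo1*, 0.20 for *Gclc* and 0.35 for *Gclm*. With the covariate the log2 change was −0.048 for *Nqo1*, −0.12 for *Gclc*, −0.18 for *Gclm*, 0.28 for *Sod1* and −0.083 for *Keap1* in the cornea, and 0.039 for *Hmox1*, −0.024 for *Cat* and −0.23 for *Prdx4* in the conjunctiva. Without AL 4 and CR 1 it was −0.027 for *Sod2* and −0.062 for *Gpx1* in the cornea. Array weights gave −0.0026 for *Gpx1* in the cornea, −0.12 for *Cat* and −0.048 for *Prdx4* in the conjunctiva. Quantile normalization gave −0.011 for *Keap1* in the cornea, 0.053 for *Hmox1* and −0.064 for *Gpx1* in the conjunctiva. Leaving out single libraries gave −0.046 to 0.068 for *Gpx1* and −0.082 to 0.077 for *Keap1* in the cornea, and −0.12 to 0.11 for *Hmox1*, −0.31 to 0.054 for *Txnrd1*, −0.043 to 0.14 for *Sod2*, −0.10 to 0.30 for *Cat* and −0.060 to 0.20 for *Prdx4* in the conjunctiva. Depth limits *Hmox1* in the cornea, at 6 to 26 reads per library.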
